A study of Homo sapiens with 40 samples.

Results

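The genes described here encode factors of ribosome biogenesis and of rRNA transcription. They were chosen by symbol from a list of 44 genes, with every probe set whose platform annotation holds one of these symbols. The annotation held 42 of the 44, out of 20172 symbols in all, on 52 of 33297 probe sets, while GNL3 and DDX18 were not analysed here. For 5 genes there was more than 1 probe set, and 7 of the 52 probe sets listed several symbols. A count of genes uses 1 probe set per gene, the brightest that names the gene alone where there is one. The RNA came from MDA-MB-231 cells, an established human line of triple-negative breast cancer. It was hybridised to 40 arrays of the Affymetrix type Human Gene 1.0 ST. Cells received fluvastatin at 2 µM for 12 h or 24 h, zoledronate at 30 µM for 12 h, 24 h or 48 h, zoledronate at 100 µM for 24 h, or the solvent alone (control). Per the series' design text, 2 µM and 30 µM are the IC50 doses of the agents in a longer treatment. Each of 10 groups held 4 replicates that the submitters call independent. Lot I held both agents and their controls at 12 h and 24 h (30 µM zoledronate), and lot II held the 48 h and the 100 µM cells, each with controls of its own.

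A ribosome is built in the nucleolus. RNA polymerase I copies the rRNA genes into a long precursor, small nucleolar RNPs (snoRNPs) guide its chemical modification and folding, and assembly factors cut it and join it with ribosomal proteins into the small and the large subunit. Growing tumour cells run this pathway at a high rate, and the transcription factor MYC, which pairs with MAX on the E-box motif, is known to drive many of its genes. Fluvastatin blocks an early enzyme of the mevalonate pathway, the source of sterols and of the isoprenoid groups that tether small GTPases to membranes, and zoledronate, a bisphosphonate, blocks a later enzyme of the same pathway.

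Promoter sequences are shown first, for 8 of the genes, each with per-array values below. These 8 were picked by hand, so their share with a motif is not that of the members, which is given after the sequences. RefSeq promoter windows (GRCh38.p14, 250 bases before to 50 after each start) were found for 34 of the 42 genes, 42 windows in all. Each line gives 70 bases before to 30 bases after the annotated start, 5′ to 3′, with the E-box CACGTG in capitals. The windows are UTP20 at chr12:101280035-101280134 (plus strand), MRTO4 at chr1:19251735-19251834 (plus strand), PNO1 at chr2:68157818-68157917 (plus strand), WDR43 at chr2:28894597-28894696 (plus strand), RRP9 at chr3:51941875-51941974 (minus strand), FBL at chr19:39846350-39846449 (minus strand), DKC1 at chrX:154762794-154762893 (plus strand) and NOP56 at chr20:2652562-2652661 (plus strand).
UTP20: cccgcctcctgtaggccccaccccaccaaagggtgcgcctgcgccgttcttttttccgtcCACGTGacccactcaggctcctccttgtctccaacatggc
MRTO4: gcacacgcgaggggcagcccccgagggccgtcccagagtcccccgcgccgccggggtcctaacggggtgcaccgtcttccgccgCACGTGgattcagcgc
PNO1: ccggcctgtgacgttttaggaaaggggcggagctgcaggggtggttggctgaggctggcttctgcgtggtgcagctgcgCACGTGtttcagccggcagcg
WDR43: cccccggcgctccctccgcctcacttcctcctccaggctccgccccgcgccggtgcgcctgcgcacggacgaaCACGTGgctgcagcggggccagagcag
RRP9: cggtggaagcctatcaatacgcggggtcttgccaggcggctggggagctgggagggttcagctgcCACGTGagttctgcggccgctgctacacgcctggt
FBL: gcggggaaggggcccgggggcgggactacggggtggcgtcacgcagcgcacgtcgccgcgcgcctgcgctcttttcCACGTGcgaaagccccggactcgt
DKC1: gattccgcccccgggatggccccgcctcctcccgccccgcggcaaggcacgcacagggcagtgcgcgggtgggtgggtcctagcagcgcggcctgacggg
NOP56: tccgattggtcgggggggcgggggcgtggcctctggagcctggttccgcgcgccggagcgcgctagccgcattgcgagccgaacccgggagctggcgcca
The first 6 hold the E-box, and the DKC1 and NOP56 windows do not. CACGTG, which reads the same on both strands, was found in 13 of the 34 genes (38.2%), at positions from -64 to 35 around the start, against 11% of 15209 genes on the array that have a window. Counted over windows, 31% of the members' windows held it, against 8.37% of 21326 windows of array genes and 7.26% of all 35116 windows. The ETS motif CCGGAAGT, searched on both strands, was in 7 genes (20.6%) against 7.06% of array genes, and the palindromic consensus of NRF1, searched as exact letters, was in DDX10, NOB1 and DKC1 (8.82%) against 2.03%. No motif of the 3 contains another, and a match only describes the letters of the window.

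All arrays were of similar overall brightness, with medians of the log2 signal over all probe sets from 6.19 to 6.33. Markers of triple-negative mesenchymal-like cells (VIM, CD44, CAV1, MSN, AXL, PLAU) were each brighter than at least 93% of probe sets. Of the 6 luminal markers ESR1, PGR and CDH1 were dim (brighter than 26.7% to 30.2% of probe sets), GATA3 and FOXA1 lay in the middle (51.6% and 63.3%), and the keratin KRT19 was bright (88.5%). The blood markers were brighter than 11.1% (PTPRC), 26.8% (CD3E), 36.9% (HBB) and 47.7% (CD14) of probe sets. Of 6 luminal markers 1 rose after 100 µM zoledronate, KRT19 (by 1.55 ± 0.16, adjusted p = 5.8e-08), and the mean log2 signal of the 6 spanned 6.36 to 6.56 on treated arrays and 6.03 to 6.24 on control arrays. The blood marker list, with CD14 as its only riser (0.42 ± 0.13, adjusted p = 0.014), spanned 4.89 to 5.13 on treated and 4.80 to 5.03 on control arrays. The mesenchymal list, with 3 of 6 genes lower and 1 higher, spanned 11 to 11.2 on treated and 11.3 to 11.5 on control arrays. In the weaker treatments KRT19 rose and AXL fell after 24 h of fluvastatin (by 0.72 ± 0.16 and 0.50 ± 0.08) and after 48 h of 30 µM zoledronate (by 0.50 ± 0.16 and 0.31 ± 0.08), and CD14 rose after 24 h of fluvastatin (by 0.52 ± 0.13). The part of these shifts in the results below was not tested.

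After 100 µM zoledronate for 24 h, 40 of 42 ribosome biogenesis genes fell and none rose. By probe set, 46 of 52 fell (limma over all arrays, adjusted p under 0.05), where 16.3% of all 21214 named probe sets fell and 15.2% rose. The median gene stood at 67.1% of its control level, a log2 difference of -0.58, while the median over all named probe sets was 0.01. Falls of at least 0.5 on the log2 scale were seen in 27 of 42 genes, against 4.94% of all named probe sets, and falls of at least 1.0 in 6, against 0.863%. In 40 genes all 4 treated arrays lay below all 4 control arrays, as in 17.2% of named probe sets. RMA sets arrays to a common distribution, so these differences are relative to other genes, and in such bulk RNA fewer cells carrying a transcript and less of it per cell cannot be told apart.

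The 6 comparisons differed in how many of the 52 probe sets fell. None passed after 30 µM zoledronate at 12 h or 24 h, 1 passed after 2 µM fluvastatin at 12 h and 21 at 24 h, 18 passed after 30 µM zoledronate at 48 h and 46 after 100 µM at 24 h. Over all named probe sets the shares that fell were 0% and 0%, 0.519% and 3.46%, 4.16% and 16.3% in the same order, so the overall share of calls rose along with the count of these genes. No probe set of these genes rose in any of the 6. The medians over the 52 were -0.18 at 12 h and -0.20 at 24 h of fluvastatin, 0.00, -0.02 and -0.21 at 12 h, 24 h and 48 h of 30 µM zoledronate, and -0.55 at 100 µM.

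**Figure D1:**
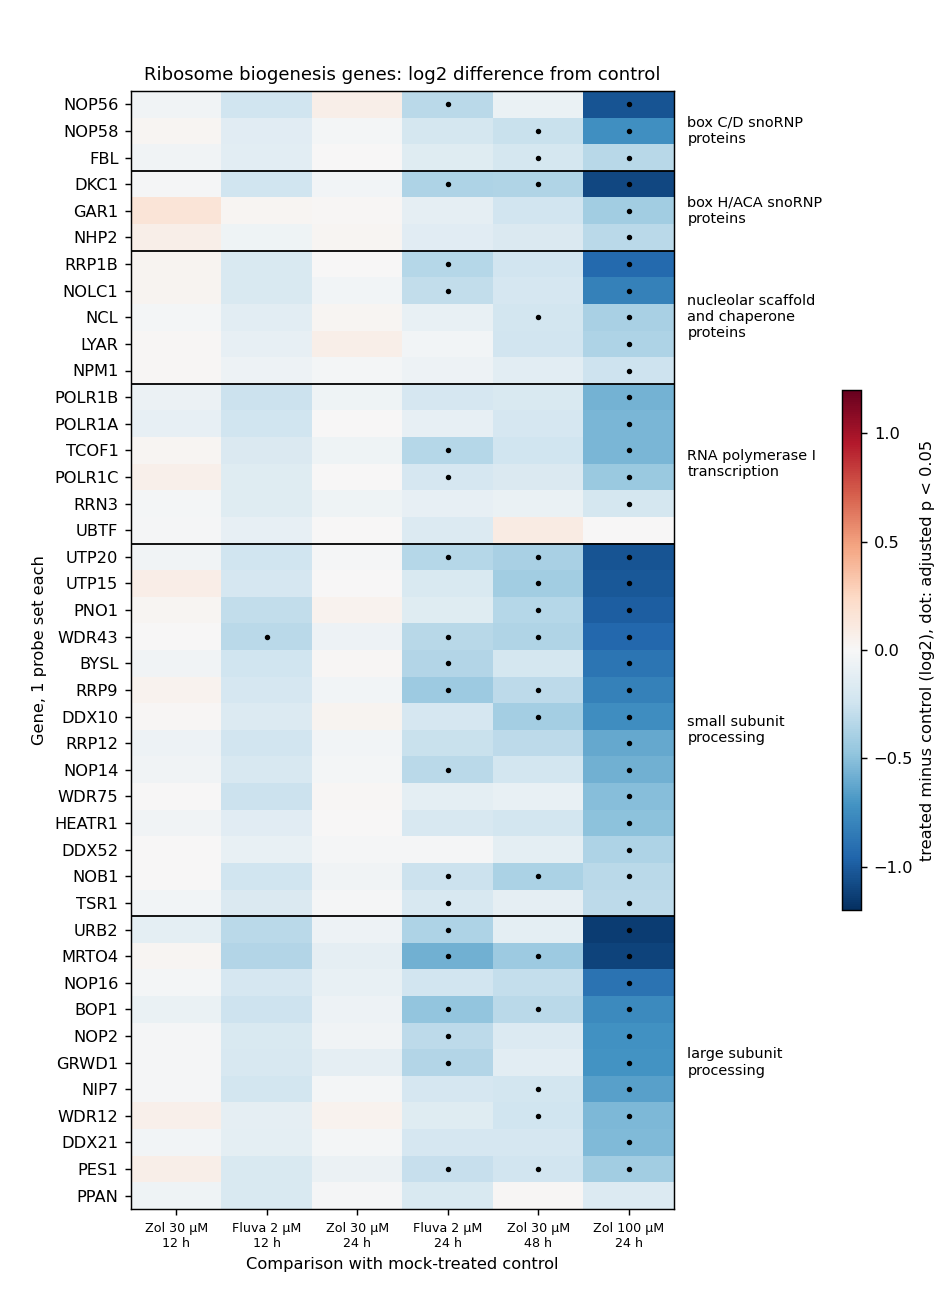
Log2 difference, treated minus control, for 42 genes (rows, by role, sorted by the 100 µM column) in the 6 comparisons (columns). Blue is lower in treated cells and a dot marks adjusted p under 0.05. The 100 µM column has a dot in every row but UBTF and PPAN, and the 12 h and 24 h columns of 30 µM zoledronate hold no dot.

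The box C/D snoRNP proteins all fell at 100 µM, where 16.3% of all named probe sets fell. These are FBL, the enzyme that methylates rRNA, and NOP56 and NOP58, the paired core proteins that hold it on the guide RNA. The NOP56 probe set, which also carries the symbol of the small RNA SNORD56 encoded in its gene, read 8.85, 8.86, 8.66 and 8.52 (log2 signal) in cells given 100 µM zoledronate, against 9.78, 9.80, 9.78 and 9.68 in control cells. Every treated array lay well below every control array, and NOP56 fell by 1.04 ± 0.08 on the log2 scale (SE, adjusted p = 2.2e-09), to 48.7% of control. NOP58 read 10.84, 10.74, 10.73 and 10.61 in treated cells, against 11.52, 11.54, 11.46 and 11.34 in control cells. Those groups did not overlap either, and NOP58 fell by 0.74 ± 0.07 (adjusted p = 2e-08). FBL read 10.72, 10.66, 10.73 and 10.61 in treated cells, against 11.08, 10.99, 11.05 and 10.93 in control cells, again without overlap. It fell by 0.33 ± 0.06 (adjusted p = 0.00027), the smallest change of the 3. At lower exposure NOP56 fell after 24 h of fluvastatin (by 0.32 ± 0.08, adjusted p = 0.015) and stood at -0.08 ± 0.08 after 48 h of 30 µM zoledronate (adjusted p = 0.61). NOP58 had the reverse pattern of calls, with -0.21 ± 0.07 after fluvastatin (adjusted p = 0.056) and a fall by 0.27 ± 0.07 after 48 h (adjusted p = 0.019). Whether NOP56 and NOP58 differ in this was not tested.

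The box H/ACA proteins, which convert uridines of rRNA to pseudouridine, also fell at 100 µM, with DKC1 far ahead. DKC1 encodes dyskerin, the pseudouridine synthase itself, which is also part of telomerase. Its bright probe set, the only one of 3 that lists DKC1 alone, read 9.19, 8.98, 8.83 and 8.84 in cells given 100 µM zoledronate, against 10.12, 10.12, 9.96 and 9.97 in control cells. Treated arrays all lay below control arrays, and DKC1 fell by 1.09 ± 0.07 (adjusted p = 2.2e-10), to 47.1% of control. The other 2 probe sets also list small RNAs encoded in the gene (SNORA36A with MIR664B, and SNORA56). The first read 2.54, 2.88, 2.57 and 2.40 in treated cells, against 3.35, 3.33, 3.48 and 3.31 in control cells, in the dim range of the array, and fell by 0.77 ± 0.12 (adjusted p = 2.9e-05). The second read 5.43, 5.32, 5.40 and 5.31 in treated cells, against 6.01, 5.75, 5.57 and 5.89 in control cells, without overlap, and its fall by 0.44 ± 0.16 (adjusted p = 0.036) did not pass without the replicate block (adjusted p = 0.08) or without replicate 2 or 4 (0.095 and 0.16). GAR1 and NHP2, small proteins of the same particle, fell by 0.42 ± 0.07 and 0.32 ± 0.06 (adjusted p = 0.0001 and 0.00018), NHP2 on its brighter probe set. The other NHP2 probe set, which also names the gene alone, had a smaller gap. It read 9.11, 8.93, 9.05 and 9.03 in treated cells, against 9.30, 9.22, 9.14 and 9.28 in control cells (means 9.03 and 9.24). The DKC1 transcript fell in the weaker treatments too, by 0.37 ± 0.07 after 24 h of fluvastatin and by 0.36 ± 0.07 after 48 h of 30 µM zoledronate (adjusted p = 0.0027 and 0.0037). After 48 h it read 9.66, 9.54, 9.58 and 9.67 in treated cells, against 10.03, 9.92, 9.97 and 9.97 in control cells, with no overlap. After fluvastatin it read 9.26, 9.79, 9.68 and 9.52 in treated cells, against 9.96, 9.99, 10.05 and 9.73 in control cells, with overlap between the groups but a lower treated array in each of the 4 pairs.

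Among the nucleolar scaffold and chaperone proteins all 5 fell at 100 µM, unevenly, where 16.3% of all named probe sets fell. RRP1B, a nucleolar protein of rRNA processing, read 8.80, 8.70, 8.72 and 8.77 in treated cells, against 9.76, 9.63, 9.65 and 9.67 in control cells. The groups stood apart, and RRP1B fell by 0.93 ± 0.09 (adjusted p = 2.7e-08). NOLC1, a chaperone of snoRNPs that shuttles between nucleolus and cytoplasm, read 10.36, 10.30, 10.27 and 10.23 in treated cells, against 11.12, 11.09, 11.17 and 11.05 in control cells. It fell by 0.81 ± 0.09 (adjusted p = 1.1e-07), without overlap. Nucleolin (NCL), which binds the rRNA precursor, fell by 0.39 ± 0.06, LYAR, a nucleolar growth regulator, by 0.37 ± 0.09, and nucleophosmin (NPM1), an abundant nucleolar chaperone, by 0.25 ± 0.05 (adjusted p = 2.7e-05, 0.002 and 0.00047). NPM1 had 4 probe sets, of which 3 bright ones fell by 0.25 to 0.30, while the fourth, a dim one, read 4.86, 4.84, 5.24 and 4.82 in treated cells, against 4.99, 5.13, 4.76 and 5.18 in control cells. Its groups overlapped, with a difference of -0.07 ± 0.11 (adjusted p = 0.71) that changed sign under 2 alternatives. RRP1B and NOLC1 fell after fluvastatin for 24 h as well (by 0.34 ± 0.09 and 0.30 ± 0.09, adjusted p = 0.015 and 0.026), and NCL fell after 48 h of 30 µM zoledronate (by 0.22 ± 0.06, adjusted p = 0.034).

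Of the 6 genes for rRNA transcription 5 fell at 100 µM, where 16.3% of all named probe sets fell, and UBTF did not pass. POLR1A, the largest catalytic subunit of RNA polymerase I, read 9.31, 9.36, 9.18 and 9.28 in treated cells, against 9.88, 9.86, 9.78 and 9.80 in control cells. No treated array reached a control array, and POLR1A fell by 0.55 ± 0.06 (adjusted p = 5.2e-07). POLR1C, a subunit that RNA polymerase III shares, read 9.71, 9.76, 9.67 and 9.65 in treated cells, against 10.24, 10.13, 10.06 and 10.16 in control cells. It fell by 0.45 ± 0.06 (adjusted p = 1e-06), also without overlap. POLR1B, the other large subunit, fell by 0.57 ± 0.08 and TCOF1, the nucleolar phosphoprotein treacle mutated in Treacher Collins syndrome, fell by 0.55 ± 0.10 (adjusted p = 3.3e-06 and 0.00018). RRN3, the initiation factor that brings the polymerase to the promoter, fell by 0.21 ± 0.08 on the probe set that names it alone (adjusted p = 0.043). Its other 3 probe sets also list the RRN3 pseudogenes and did not pass (-0.14 to -0.23, adjusted p = 0.066 to 0.17), so signal from the gene and its copies cannot be told apart there. UBTF, which binds the rRNA genes and keeps them open, read 9.90, 9.95, 9.87 and 9.89 in treated cells, against 10.02, 9.88, 9.86 and 9.87 in control cells. The treated arrays lay within the range of the control arrays, with means of 9.90 ± 0.04 in treated and 9.91 ± 0.08 in control cells (SD, n = 4 each), 99.8% of control, and a standard error of 0.06 on the log2 difference (adjusted p = 0.98). The sign of that difference turned when the arrays were quantile normalized anew (0.09) or replicate 1 was left out (0.03). At 24 h of fluvastatin TCOF1 and POLR1C fell (by 0.34 ± 0.10 and 0.20 ± 0.06, adjusted p = 0.037 and 0.027), where 3.46% of named probe sets fell. UBTF stood at -0.16 ± 0.06 there (adjusted p = 0.092). After 48 h of 30 µM zoledronate none of the 6 passed, where 4.16% of named probe sets fell and 3.07% rose. With 6 genes that count is near this background, and nothing is read from it.

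**Figure D2:**
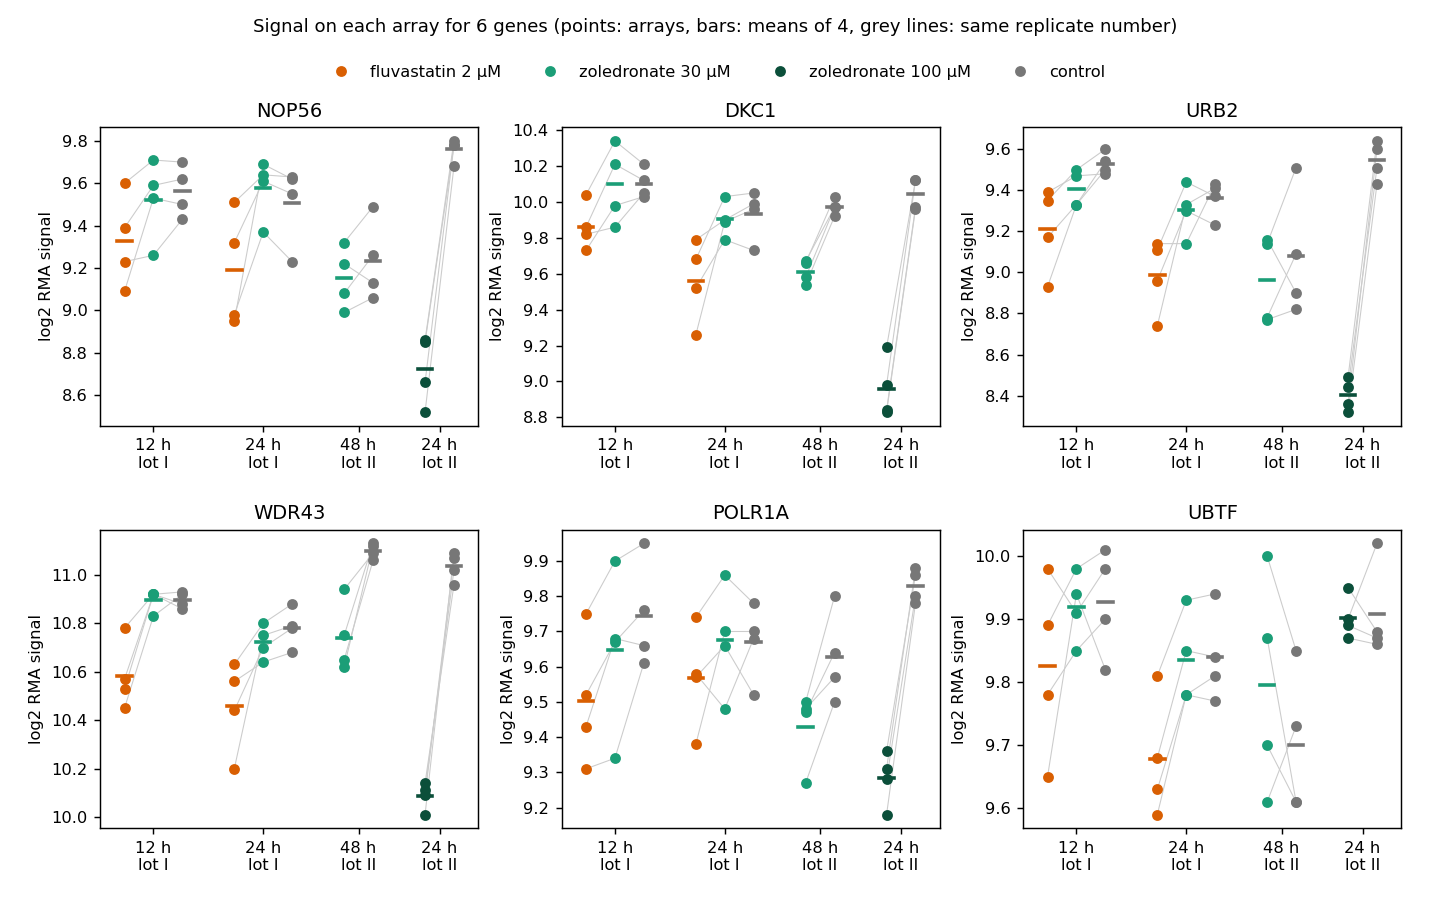
Log2 RMA signal of 6 genes on every array (points), by time and lot, with the mean of 4 as a bar and grey lines joining arrays of the same replicate number. NOP56, DKC1, URB2, WDR43 and POLR1A sit lowest after 100 µM zoledronate, with POLR1A between 9.18 and 9.36 there against 9.78 to 9.88 in its control, and UBTF does not separate.

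All 14 small subunit factors fell at 100 µM, by 0.31 to 1.04, where 16.3% of all named probe sets fell. Most belong to the small subunit processome, the large particle that folds and cuts the front part of the rRNA precursor. WDR43, a processome protein, read 10.09, 10.01, 10.11 and 10.14 in treated cells, against 11.07, 11.09, 11.02 and 10.96 in control cells. The groups stood far apart, and WDR43 fell by 0.94 ± 0.07 (adjusted p = 1.8e-09). PNO1, which guards the end of the small subunit rRNA until NOB1 cuts it, read 8.62, 8.47, 8.62 and 8.38 in treated cells, against 9.65, 9.56, 9.50 and 9.36 in control cells. It fell by 0.99 ± 0.08 (adjusted p = 4.7e-09), to 50.2% of control. NOB1, the endonuclease of that last cut, read 9.07, 9.15, 9.17 and 8.99 in treated cells, against 9.47, 9.38, 9.38 and 9.45 in control cells. Its arrays did not overlap, but its fall by 0.32 ± 0.07 (adjusted p = 0.00079) was among the smallest. UTP20 and UTP15, further processome proteins, fell by 1.04 ± 0.09 and 1.02 ± 0.09 (adjusted p = 9.1e-09 and 6.2e-09). BYSL, or bystin, a factor of the maturing small subunit, fell by 0.88 ± 0.08, RRP9, a protein of the U3 snoRNP, by 0.81 ± 0.08, and the helicase DDX10 by 0.75 ± 0.09 (adjusted p = 1.1e-08, 2.7e-08 and 5.7e-07). RRP12, NOP14, WDR75 and HEATR1 fell by 0.49 to 0.61, and DDX52 and TSR1 by 0.37 and 0.31.

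Of 11 large subunit factors 10 fell at 100 µM, where 16.3% of all named probe sets fell. URB2, which acts in early large subunit assembly, read 8.49, 8.44, 8.32 and 8.36 in treated cells, against 9.64, 9.51, 9.43 and 9.60 in control cells. The separation was wide, and URB2 fell by 1.14 ± 0.09 (adjusted p = 3.5e-09), to 45.3% of control, the lowest percentage of the 42 genes in this comparison. MRTO4, a factor that holds the place of the ribosomal stalk, read 8.89, 8.64, 8.55 and 8.62 in treated cells, against 9.94, 9.81, 9.75 and 9.64 in control cells. It fell by 1.11 ± 0.10 (adjusted p = 1.3e-08), without overlap. BOP1, PES1 and WDR12, which form the PeBoW complex, fell by 0.76 ± 0.08, 0.42 ± 0.06 and 0.54 ± 0.06 (adjusted p = 9.2e-08, 1e-05 and 5.2e-07). The other BOP1 probe set read 8.87, 8.75, 8.73 and 8.71 in treated cells, against 9.53, 9.65, 9.54 and 9.62 in control cells, and its fall by 0.82 ± 0.07 (adjusted p = 9.2e-09) was close to the first. NOP16 fell by 0.89 ± 0.10, NOP2, an rRNA methyltransferase, by 0.73 ± 0.07, GRWD1 by 0.72 ± 0.07, NIP7 by 0.65 ± 0.07 and the helicase DDX21 by 0.53 ± 0.07. PPAN, whose yeast relative acts in large subunit assembly, read 9.03, 9.15, 9.11 and 9.05 in treated cells, against 9.25, 9.32, 9.13 and 9.26 in control cells. The groups overlapped slightly, with a difference of -0.16 ± 0.06 (adjusted p = 0.063) that passed in 3 of the alternatives (adjusted p = 0.036 to 0.043). Its probe set also carries P2RY11, the neighbouring gene with which PPAN forms read-through transcripts.

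After 24 h of 2 µM fluvastatin 19 of the 42 genes fell and none rose. By probe set 21 of 52 fell, against 3.46% of all named probe sets (6.41% rose), and the median gene stood at 86.8% of control. MRTO4 read 9.34, 9.90, 9.96 and 9.32 in treated cells, against 10.41, 10.23, 10.33 and 9.86 in control cells. Groups overlapped, yet the treated array was the lower in each pair, and MRTO4 fell by 0.58 ± 0.10 (adjusted p = 0.00098), to 67.0% of control. RRP9 read 9.06, 9.15, 8.96 and 9.06 in treated cells, against 9.68, 9.51, 9.51 and 9.27 in control cells, with no overlap, and fell by 0.44 ± 0.08 (adjusted p = 0.0012). BOP1 read 9.86, 10.05, 9.76 and 9.59 in treated cells, against 10.66, 10.31, 10.21 and 9.97 in control cells. Its control arrays spread widely, the groups overlapped, and it fell by 0.47 ± 0.08 (adjusted p = 0.00079). GRWD1, a WD-repeat protein that binds assembling large subunits, read 10.17, 10.38, 10.38 and 10.35 in treated cells, against 10.81, 10.58, 10.63 and 10.68 in control cells, and fell by 0.35 ± 0.07 (adjusted p = 0.002). URB2 read 8.74, 9.14, 8.96 and 9.11 in treated cells, against 9.41, 9.43, 9.23 and 9.37 in control cells, and fell by 0.37 ± 0.09 (adjusted p = 0.012). The groups of neither gene overlapped. Further falls included BYSL (0.35 ± 0.08) and NOP2 (0.31 ± 0.07). DDX52 and LYAR were the nearest to no difference, at -0.01 ± 0.06 and -0.03 ± 0.09 (adjusted p = 0.97 and 0.90).

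This count depended on the pairing and on single replicates. It was 10 probe sets without the replicate block, 0 with only the arrays compared, and 3, 6 and 13 without replicate 1, 3 and 4. Over all 21214 named probe sets the falls dropped too, from 733 to 206, 0, 79, 210 and 305 in the same settings. With any 1 replicate left out the members' count ranged from 3 to 24. Without replicate 1, URB2, DKC1 and GRWD1 no longer passed (adjusted p = 0.19, 0.098 and 0.079).

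At 12 h of fluvastatin only WDR43 passed, 1 of 52 probe sets, against 0.519% of all named probe sets that fell and 0.297% that rose. WDR43 read 10.45, 10.57, 10.53 and 10.78 in treated cells, against 10.92, 10.88, 10.86 and 10.93 in control cells. All treated arrays lay below the controls, and WDR43 fell by 0.32 ± 0.07 (adjusted p = 0.039), a call lost without the replicate block (adjusted p = 0.083) and without any 1 of the 4 replicates (0.086 to 0.24). Of the 52 probe sets, 49 had a difference below 0 and 28 an unadjusted p under 0.05, where 6.52% of named probe sets were lower and 7.21% higher at that p. The effect at 24 h minus that at 12 h passed in 0 of 52, as in 0% of all named probe sets, with 3 at an unadjusted p under 0.05, where 5.72% were lower and 5.29% higher. Gene by gene that difference lay between -0.24 and 0.15, with a median of -0.05.

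Zoledronate at 30 µM, the dose matched to 2 µM fluvastatin by the submitters' IC50, gave 0 of 52 calls at 12 h and at 24 h by limma, and 0 again without the block. At both times 0% of all named probe sets passed. An unadjusted p under 0.05 was reached by 0 of 52 at either time, where 1.31% of named probe sets were lower and 1.54% higher at 12 h, and 2.86% lower and 2.05% higher at 24 h. Single genes differed from control by -0.12 to 0.15 at 12 h and by -0.11 to 0.07 at 24 h. MRTO4, for example, read 10.26, 10.14, 10.21 and 9.78 in treated cells at 24 h, against 10.41, 10.23, 10.33 and 9.86 in control cells. The groups overlap, while the treated array was the lower in each of the 4 pairs (-0.15, -0.09, -0.12 and -0.08), and the difference was -0.11 ± 0.10 (adjusted p = 1). Being lower in all 4 pairs at 24 h held for 6 of the 42 genes, 5 of them large subunit factors, and for 7.9% of all named probe sets.

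The agents were compared directly on the same days in lot I. At 24 h, fluvastatin was below 30 µM zoledronate on 18 of 52 probe sets (15 genes) and above it on none, where 2.76% of all named probe sets were lower and 3.88% higher. The difference was -0.47 ± 0.10 for MRTO4, -0.41 ± 0.08 for RRP9 and for BOP1, -0.39 ± 0.08 for NOP56 and -0.34 ± 0.07 for DKC1 (adjusted p = 0.0064, 0.0031, 0.0037, 0.0062 and 0.007). For UBTF it was -0.16 ± 0.06 (adjusted p = 0.12). At 12 h only WDR43 passed (-0.32 ± 0.07, adjusted p = 0.042), 1 of 52, against 0.387% lower and 0.203% higher among all named probe sets. The 24 h count was 2 without the replicate block, 3 with only the arrays compared, and 1, 1 and 5 without replicate 1, 3 and 4. Over all 21214 named probe sets the lower calls dropped too, from 585 to 118, 159, 38, 97 and 162 in the same settings. With any 1 replicate left out the members' count ranged from 1 to 24.

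After 48 h of 30 µM zoledronate, in lot II, 16 of 42 genes fell, among them 7 of 14 small subunit and 5 of 11 large subunit factors. By probe set it was 18 of 52, against 4.16% of all named probe sets (3.07% rose). UTP15 read 8.40, 8.53, 8.38 and 8.62 in treated cells, against 9.21, 8.90, 8.67 and 8.82 in control cells. No treated array reached the lowest control, and UTP15 fell by 0.42 ± 0.09 (adjusted p = 0.0041). DDX10 read 9.02, 9.26, 8.89 and 9.10 in treated cells, against 9.53, 9.48, 9.47 and 9.41 in control cells, and NOB1 read 9.14, 9.47, 9.39 and 9.13 in treated cells, against 9.57, 9.75, 9.64 and 9.69 in control cells. Both were without overlap, and they fell by 0.41 ± 0.09 and 0.38 ± 0.07 (adjusted p = 0.0069 and 0.0019). UTP20 read 9.50, 9.19, 8.95 and 9.42 in treated cells, against 10.08, 9.85, 9.29 and 9.39 in control cells. Its groups overlapped, it was lower in 3 of 4 pairs, and it fell by 0.39 ± 0.09 (adjusted p = 0.01). MRTO4 fell by 0.44 ± 0.10 (adjusted p = 0.0081), URB2 stood at -0.12 ± 0.09 (adjusted p = 0.52), and UBTF at 0.10 ± 0.06 (adjusted p = 0.38). The count was 4 without the replicate block, 0 with only the arrays compared, 7 without replicate 1 and 3 without replicate 3. Over all 21214 named probe sets the falls dropped too, from 882 to 199, 0, 319 and 246 in the same settings. MRTO4 and UTP20 did not pass without the block (adjusted p = 0.18 and 0.22).

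**Figure D3:**
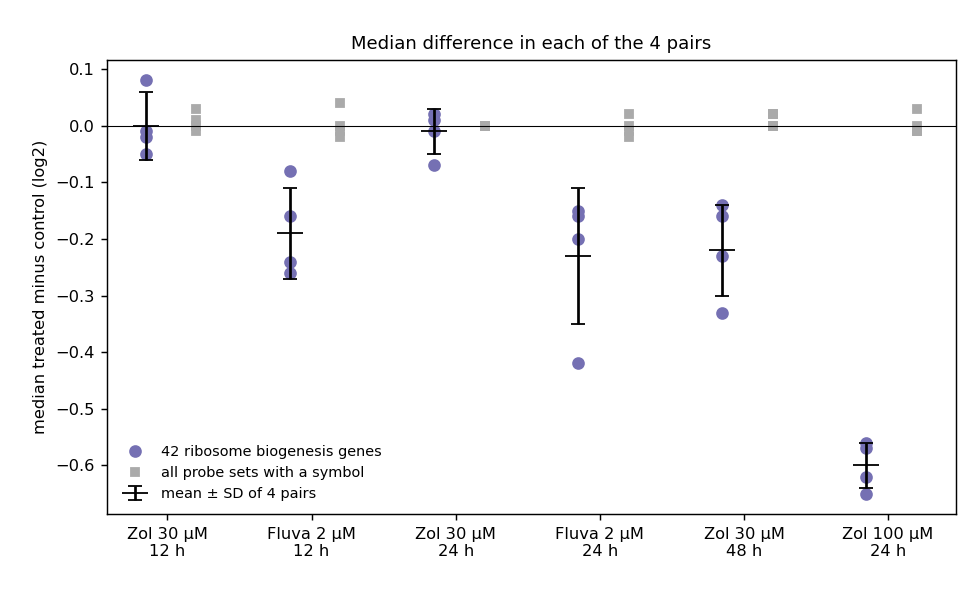
Median log2 difference, treated minus control, over the 42 genes in each of the 4 pairs (circles, with mean ± SD) and over all named probe sets (squares), for the 6 comparisons. The 100 µM pairs lie between -0.65 and -0.56, the squares stay within -0.02 and 0.04, and 1 fluvastatin pair at 24 h lies at -0.42.

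Pair by pair, the median of the 42 genes was -0.62, -0.56, -0.57 and -0.65 at 100 µM, -0.33, -0.16, -0.23 and -0.14 at 48 h of 30 µM, and -0.42, -0.15, -0.20 and -0.16 at 24 h of fluvastatin. At 12 h of fluvastatin the pairs gave -0.24, -0.26, -0.16 and -0.08. The 24 h pairs of 30 µM zoledronate lay around 0, at 0.02, -0.07, -0.01 and 0.01. The 100 µM pairs thus varied least around their own mean (-0.60 ± 0.04, SD, n = 4) among the 3 treatments with more than 1 call, against 0.08 at 48 h and 0.12 at 24 h of fluvastatin.

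Across doses and times, 100 µM zoledronate at 24 h was below 30 µM at 24 h on 44 of 52 probe sets, where 10.9% of named probe sets were lower and 8.87% higher. The differences of effect reached -1.10 ± 0.12 for NOP56 and -1.08 ± 0.13 for URB2 (adjusted p = 8.9e-07 and 4.3e-06), and the 2 doses came from different lots, so dose and lot cannot be told apart beyond each lot's own control. Against 30 µM at 48 h, within lot II but at another time, 100 µM was lower on 27 of 52, where 4.24% were lower and 3.71% higher. There URB2 differed by -1.03 ± 0.13 and NOP56 by -0.95 ± 0.12 (adjusted p = 5.2e-05 and 2.7e-05), whereas NOB1 differed by 0.06 ± 0.10 and FBL by -0.12 ± 0.09 (adjusted p = 0.83 and 0.51). That count was 14 without the replicate block and 10 without replicate 3 or without replicate 4. Over all 21214 named probe sets the lower calls dropped too, from 899 to 316, 227 and 237 in the same settings. The 48 h effect of 30 µM minus its 24 h effect passed on 0 of 52, where 0.278% of named probe sets passed as lower and 0.118% as higher. There 23 of 52 had an unadjusted p under 0.05, against 7.74% of named probe sets lower and 7.33% higher, and 6 passed when arrays were weighted by quality.

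The effect of 100 µM zoledronate was below that of 24 h fluvastatin on 26 of 52 probe sets, where 4.04% were lower and 1.53% higher, though lots, agents and doses relative to the IC50 all differed. PNO1 and UTP15 had the widest gaps, at -0.85 ± 0.12 and -0.84 ± 0.12 (adjusted p = 0.00018 and 0.00027). In contrast RRP9 differed by -0.38 ± 0.11 (adjusted p = 0.044), NOB1 by -0.06 ± 0.10 (adjusted p = 0.77) and UBTF by 0.16 ± 0.08 (adjusted p = 0.30). The count was 12 without the replicate block, and 10, 6 and 9 without replicate 2, 3 and 4. Over all 21214 named probe sets the lower calls dropped too, from 856 to 199, 244, 120 and 143 in the same settings.

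**Figure D4:**
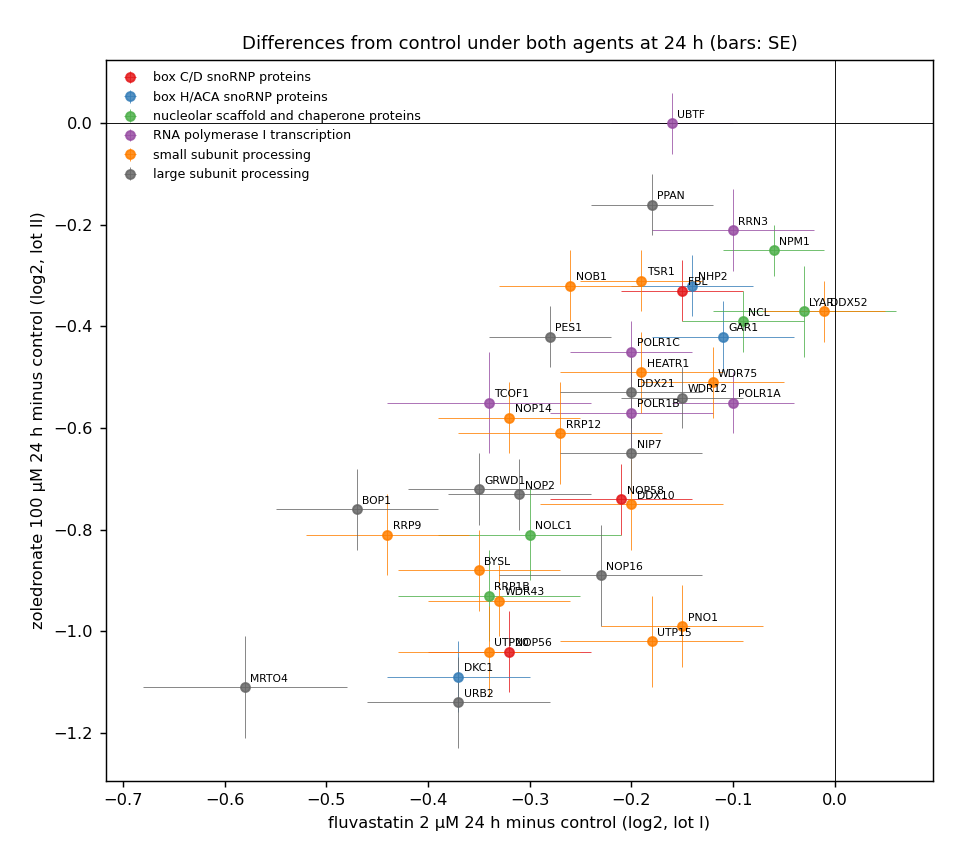
Log2 difference from control of the 42 genes after 24 h of 2 µM fluvastatin (x axis, lot I) and of 100 µM zoledronate (y axis, lot II), coloured by role, with standard errors as bars. MRTO4 lies lowest on the fluvastatin axis at -0.58, URB2 lowest on the zoledronate axis at -1.14, and PNO1 and UTP15 fell far on the zoledronate axis with -0.15 and -0.18 on the other.

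As 40 of 42 genes passed at 100 µM, nearly any list of these genes lies inside that set, and nothing is read from it. All 19 genes that fell after 24 h of fluvastatin were among the 40 of 100 µM zoledronate (47.5% of these), as were all 16 of the 48 h comparison (40.0%). BOP1, DKC1, MRTO4, NOB1, PES1, RRP9, UTP20 and WDR43 fell in all 3, which is 42.1% of the fluvastatin and 50% of the 48 h genes. Singly, 3.46% of all named probe sets fell after 24 h of fluvastatin, 4.16% after 48 h of 30 µM and 16.3% after 100 µM. The same overlaps over all named probe sets were not counted. These overlaps were not tested, and no excess over that background is read from them. Another 13 genes, among them POLR1A, POLR1B, RRN3, NPM1 and NOP16, passed at 100 µM only, and whether they differ from the other genes in the weaker treatments was not tested. These 3 comparisons share no array. The differences in fluvastatin at 24 h and in 100 µM zoledronate correlated across the 42 genes with Pearson's r = 0.66 and Spearman's rho = 0.70, and across all 21214 named probe sets with 0.69 and 0.54. For 48 h of 30 µM against 100 µM the values were 0.59 and 0.52 across the 42 genes, and 0.64 and 0.53 across all. For fluvastatin at 24 h against 48 h of 30 µM they were lower, 0.39 and 0.36 across the 42 genes and 0.44 and 0.29 across all. Genes are not independent replicates, and the points of a comparison share its arrays, so these values are descriptions.

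Apart from MYC and its MAX network, described further below, lists of other genes around the pathway also held more falls than rises at 100 µM. Of 43 other small subunit factors 37 fell and 1 rose, of 51 other large subunit factors 46 fell and 1 rose, and of 9 snoRNP assembly factors all 9 fell, with list medians of -0.43, -0.50 and -0.51, where 16.3% of all named probe sets fell and 15.2% rose. PAK1IP1, a large subunit factor, fell by 1.08 ± 0.08, NOL6, of the small subunit processome, by 1.07 ± 0.10 and NAF1, which assembles H/ACA particles, by 0.93 ± 0.11 (adjusted p = 3.4e-10, 2.6e-08 and 5.2e-07). The risers were RIOK3, a kinase of the small subunit's cytoplasmic maturation (0.73 ± 0.13, adjusted p = 7.2e-05), and NOP53 (0.36 ± 0.11, adjusted p = 0.013). Of 10 other RNA polymerase I factors 6 fell, led by POLR1E (by 1.03 ± 0.08) and TAF1A (by 1.02 ± 0.07), and none rose. Of 10 RNA polymerase III subunits 7 fell and 1 rose. POLR3G, the subunit of growing and stem cells, fell by 1.19 ± 0.13 (adjusted p = 2.1e-07), and its paralog POLR3GL rose by 0.29 ± 0.10 (adjusted p = 0.022).

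The ribosomal proteins that these factors assemble had a median nearer to 0. Of 67 cytosolic ribosomal protein genes 24 fell and 0 rose at 100 µM, with a median of -0.11, or 92.9% of control, where 16.3% of all named probe sets fell. After 24 h of fluvastatin 2 of 67 fell, against 3.46% of named probe sets, and after 48 h of 30 µM zoledronate 0 of 67, against 4.16%. RPL32 had the largest fall among them, by 0.99 ± 0.11 (adjusted p = 1.5e-07), and RPL35 fell by 0.34 ± 0.07 and RPS24 by 0.44 ± 0.07. Of 13 exosome genes, whose complex trims the precursor, 9 fell, of 19 cytosolic aminoacyl-tRNA synthetases 13 fell and 1 rose, and of 16 purine and pyrimidine synthesis genes 14 fell and 1 rose. CTPS1, which makes CTP, fell by 0.96 ± 0.12 and PPAT, the first enzyme of purine synthesis, by 0.91 ± 0.11 (adjusted p = 7.3e-07 and 6.9e-07), while IMPDH1 rose by 0.35 ± 0.08 (adjusted p = 0.0011). After 24 h of fluvastatin 8 of the other small subunit factors, 17 of the other large subunit factors (with 1 riser) and 5 of the snoRNP assembly factors fell, and after 48 h of 30 µM zoledronate 13, 18 and 3.

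**Figure D5:**
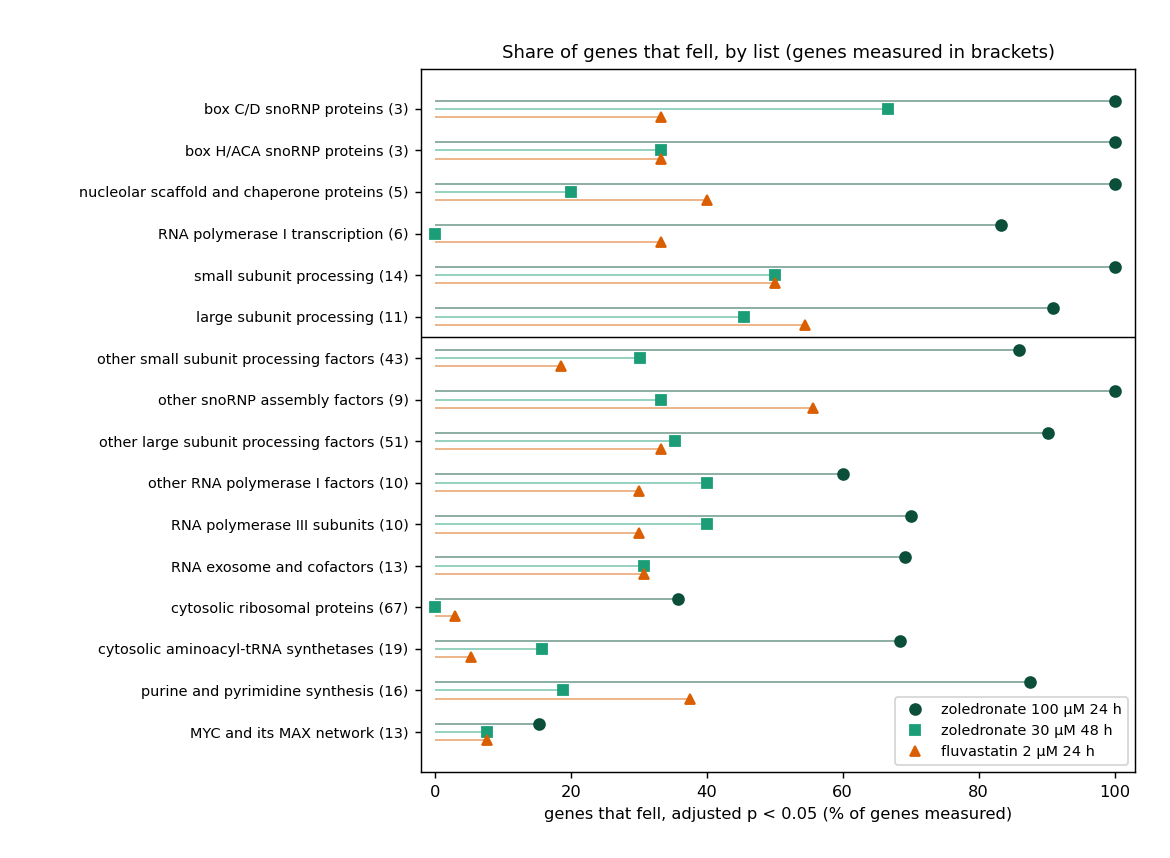
Share of measured genes that fell (adjusted p under 0.05) in each role group of the 42 genes (above the line) and in lists around the pathway (below it), after 100 µM zoledronate, 48 h of 30 µM zoledronate and 24 h of 2 µM fluvastatin, with the number of genes in brackets. Ribosomal proteins reach 24 of 67 at 100 µM, while the 14 small subunit factors reach all 14, against 16.3% of all named probe sets.

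MYC read 8.95, 9.01, 8.91 and 8.81 after 100 µM zoledronate, against 10.53, 10.62, 10.56 and 10.58 in control cells, far apart. It fell by 1.65 ± 0.10 (adjusted p = 1.3e-10), more than any of the 42 genes. After 24 h of fluvastatin it read 9.81, 10.28, 9.90 and 10.01 in treated cells, against 10.95, 10.56, 10.51 and 10.62 in control cells, and after 48 h of 30 µM zoledronate 9.99, 10.39, 10.41 and 10.26, against 10.54, 10.85, 11.02 and 10.98 in control cells. Both groups lay below their controls without overlap, and MYC fell by 0.66 ± 0.10 and 0.59 ± 0.10 (adjusted p = 0.00041 and 0.0012). Of 13 genes of MYC and its MAX network 2 fell and 4 rose at 100 µM, where 16.3% of named probe sets fell and 15.2% rose. The count of falls is near that background. Among the 4 risers were MXD1 (0.83 ± 0.13), MXD4 (0.70 ± 0.11) and MNT (0.36 ± 0.07), repressors that compete for MAX. The remaining riser and the faller beside MYC are not described here. After 24 h of fluvastatin MYC alone of the 13 fell and 2 rose, MXD1 and MXD4 (0.66 ± 0.13 and 0.42 ± 0.11), against 3.46% and 6.41%. After 48 h of 30 µM zoledronate MYC alone fell and 0 rose, against 4.16% and 3.07%. Already at 12 h of fluvastatin 1 of the 13 fell and 0 rose, against 0.519% and 0.297%. At 12 h and 24 h of 30 µM zoledronate none of the 13 passed, against 0% of named probe sets. Among the 34 genes with a promoter window, the median difference at 100 µM was -0.73 in the 13 with the E-box shown above and -0.51 in the 21 without. For 24 h of fluvastatin the medians were -0.31 and -0.19, and for 48 h of 30 µM zoledronate -0.23 and -0.18. These medians are given without a test, and the part of MYC in the members' falls was not tested.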

How the data were processed

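RNA was isolated with RNeasy kits and hybridised to 1-colour arrays, per the labels' protocols. The deposited values are log2 signals per probe set that the authors made with RMA in Affymetrix Power Tools 1.10.2, per the submitters' processing notes. Not given in the sources used here are the genome build and whether both lots were normalized together. Values spanned 1.2 to 14.52, and no 2 arrays were identical (highest correlation 0.9957). The number of arrays limits the precision.

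Symbols came from the platform annotation, which named 21214 of 33297 probe sets (19460 with 1 symbol, 1754 with several). All 40 arrays were fitted together with limma 3.58.1 in R 4.3.3, with 6 treatment effects and 16 blocks of lot, time and replicate number (18 residual degrees of freedom). The block follows the design text, which pairs treated and control cells by day. Tests were two-sided, with Benjamini-Hochberg adjustment over the 21214 named probe sets and a threshold of 0.05. Differences between effects were contrasts of the same fit. Errors beside a difference are standard errors. Treated and control arrays with 1 replicate number, each minus its group mean, correlated at 0.18 to 0.61 in lot I (16 of 16 pairs over 0.1), at -0.28 to 0.53 at 48 h (2 of 4) and at -0.08 to 0.25 at 100 µM (1 of 4).

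On simulated data with the layout of the 100 µM comparison, 100 of 21214 probe sets were changed by 0.5 and 100 by 1.0 on the log2 scale. The fit recovered 83% and 94% of them, with 6.8% false calls. The adjusted p depends on how many probe sets change, and 6671 passed in the real 100 µM comparison. These shares therefore need not hold for the real comparisons. The members and lists were chosen with earlier results of these data known. Values on every array are given for the members with the smallest and the largest p in each role at 100 µM and for those with the largest changes elsewhere, and genes of other lists for the smallest p and for changes against the list. A few further members were added for their roles. The alternatives left out the block or made it random, changed the probe sets, normalization, variance prior, array weights or arrays fitted, and left out each replicate. Motifs and sequences came from RefSeq promoters, GRCh38.p14.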

Additional observations from a re-analysis of the deposited data

Results flagged for a closer look

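Among the 4 pairs of a comparison, 1 pair stood apart by Dixon's test (gap to the nearest pair, divided by the whole range, above the critical value) in 7 of 166 tests, while chance flags about 1 in 20 groups. After 24 h of fluvastatin this held for the median difference of the 42 genes (ratio 0.84), where replicate 1 gave -0.42 and the others -0.20 to -0.15, and for URB2 (0.954), POLR1C (0.879) and NOLC1 (0.863). It also held for DKC1 after 100 µM zoledronate (0.935), for PPAN after 12 h of fluvastatin (0.863) and for UBTF after 12 h of 30 µM zoledronate (0.84).

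Effects differed between treatments by limma contrasts on these numbers of the 52 probe sets. Fluvastatin was below 30 µM zoledronate on 1 at 12 h and on 18 at 24 h. Zoledronate at 100 µM was below 30 µM at 24 h on 44, below 30 µM at 48 h on 27 and below fluvastatin at 24 h on 26.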

How the results depend on the processing

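The count after 100 µM zoledronate stayed within 1.5 times of 46 in each alternative (39 to 49, and 43 to 45 with a replicate left out), and so did the 44 of 100 µM against 30 µM at 24 h (34 to 41 with a replicate left out). Only the median at 100 µM under renewed quantile normalization, -0.46 against -0.55, moved beyond the spread between pairs. The counts for 30 µM at 12 h and 24 h, and for fluvastatin at 24 h minus 12 h, were 0 in every alternative.

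Without the replicate block, which pairs arrays by day, the calls numbered 0 for fluvastatin at 12 h, 10 at 24 h, 4 for 30 µM at 48 h and 43 for 100 µM. Between effects, the unpaired counts were 0 and 2 for fluvastatin minus 30 µM at 12 h and 24 h, 14 for 100 µM minus 30 µM at 48 h and 12 for 100 µM minus fluvastatin. Over all named probe sets, 714, 357 and 4899 passed without the block for fluvastatin at 24 h, 30 µM at 48 h and 100 µM.

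With only the arrays compared, the fit has fewer samples: 0 passed for fluvastatin at 12 h and at 24 h and for 30 µM at 48 h, and 0 and 3 for fluvastatin minus 30 µM at 12 h and 24 h. Over all 21214 named probe sets, 12, 2 and 0 passed, and 123 and 514, in the same order. The single call of fluvastatin at 12 h became 0 over all probe sets, 3 without the dimmest probe sets, 5 with an intensity trend and 5 with array weights. That of fluvastatin minus 30 µM at 12 h became 2 with a random block, 2 in the gene table, 0 over all probe sets, 4 without the dimmest probe sets, 0 after renewed quantile normalization, 6 with a trend and 5 with weights. At 24 h that difference gave 11 over all probe sets. At 48 h, 28 passed with a trend, and array weights gave 6 for 48 h minus 24 h.

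With a replicate left out the counts were 0 to 0 for fluvastatin at 12 h, 3 to 24 at 24 h, 3 to 16 at 48 h, 0 to 0 and 1 to 24 for fluvastatin minus 30 µM at 12 h and 24 h, 10 to 25 for 100 µM minus 30 µM at 48 h and 6 to 22 for 100 µM minus fluvastatin. Over all named probe sets the calls then also varied, from 301 to 2650 for fluvastatin at 24 h and from 497 to 1419 at 48 h. Differences near 0 changed sign for the dim NPM1 probe set (0.03 with weights, and -0.25 to 0.02 with a replicate left out) and for UBTF (0.09 after renewed quantile normalization, and -0.03 to 0.03 with a replicate left out), none of them past the threshold. Of the values of single named probe sets under an alternative, 380 kept direction and side of the threshold, 38 no longer passed, 3 newly passed and 4 changed sign. Beyond the construction of each alternative, the cause was not tested. With 4 arrays a group, differences of 0.5 on the log2 scale were recovered incompletely (83%) on simulated data with few changed probe sets. Recovery with as many changed probe sets as in each real comparison was not tested.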
